A study of Mus musculus with 8 samples.

Results

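The homeobox genes described here are developmental transcription factor genes that lie outside the Hox clusters. They were taken by gene symbol from 15 families (Alx, Barx, Dlx, Emx, En, Gbx, Hhex, Irx, Isl, Lhx, Msx, Nkx, Prrx, Vax and the family of Six4 and Six5), which gave 61 of the 24505 rows in each library. RNA had been sequenced from mouse embryonic stem cells of an INO80 CKO line, whose conditional allele is deleted after 4-OHT. Naive cells were kept in 2iL medium (the MEK inhibitor PD0325901, the GSK3 inhibitor CHIR99021 and LIF), and primed cells in FAX medium (FGF-2, Activin A and the tankyrase inhibitor XAV-939). With wild type and knockout as the labels of 2 libraries each in both states, 8 libraries formed 4 groups. The labels' protocols give 100 nM 4-OHT for 2 days and then 2 days without it. They do not say if wild-type cells received 4-OHT, and neither the Cre driver nor the number of clones is given.

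Homeodomain proteins bind DNA through a conserved helix-turn-helix fold and set regional and cell identity in the embryo, from the forebrain and eye to the heart, gut and limb. In pluripotent cells most of their genes are held at a low level under bivalent chromatin, where the activating mark H3K4me3 and the Polycomb mark H3K27me3 share a CpG-rich promoter. INO80 is the ATPase of a chromatin remodelling complex that moves nucleosomes, and the series title links it to bivalency. Chromatin was not measured in the files used here, so the values below describe RNA levels only.

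The promoters of 4 members, chosen after their values were seen, are shown so that the CpG-rich sequence class can be seen beside the values. Nkx2-9 and Nkx1-2 were higher in primed libraries labelled knockout, Nkx1-2 by far less than Nkx2-9, and Emx2 and Irx3 were lower. Each window runs from 250 bases before to 50 bases after the RefSeq transcription start on GRCm38.p6, is written 5′ to 3′ on the gene's strand, and has its CpG dinucleotides in capitals. The windows are Nkx2-9 at chr12:56613235-56613534 on the minus strand (15 CpG), Nkx1-2 at chr7:132599588-132599887 on the minus strand (21 CpG), Emx2 at chr19:59458440-59458739 on the plus strand (26 CpG) and Irx3 at chr8:91801605-91801904 on the minus strand (14 CpG).
Nkx2-9: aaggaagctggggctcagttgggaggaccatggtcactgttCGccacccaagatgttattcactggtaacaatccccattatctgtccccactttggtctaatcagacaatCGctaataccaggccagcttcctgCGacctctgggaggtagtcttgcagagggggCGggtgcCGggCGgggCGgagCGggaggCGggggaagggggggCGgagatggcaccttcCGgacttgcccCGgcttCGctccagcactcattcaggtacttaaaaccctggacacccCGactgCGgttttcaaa
Nkx1-2: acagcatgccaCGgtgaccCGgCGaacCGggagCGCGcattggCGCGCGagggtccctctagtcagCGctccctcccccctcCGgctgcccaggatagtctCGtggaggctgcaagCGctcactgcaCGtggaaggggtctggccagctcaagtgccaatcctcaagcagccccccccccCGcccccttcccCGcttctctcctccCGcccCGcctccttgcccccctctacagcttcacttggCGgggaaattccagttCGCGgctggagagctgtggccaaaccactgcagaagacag
Emx2: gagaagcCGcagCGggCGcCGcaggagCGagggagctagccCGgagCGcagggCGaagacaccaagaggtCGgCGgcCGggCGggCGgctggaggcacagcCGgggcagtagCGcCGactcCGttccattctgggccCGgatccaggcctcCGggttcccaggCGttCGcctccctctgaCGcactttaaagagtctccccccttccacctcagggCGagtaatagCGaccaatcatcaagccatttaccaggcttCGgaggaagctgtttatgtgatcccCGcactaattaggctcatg
Irx3: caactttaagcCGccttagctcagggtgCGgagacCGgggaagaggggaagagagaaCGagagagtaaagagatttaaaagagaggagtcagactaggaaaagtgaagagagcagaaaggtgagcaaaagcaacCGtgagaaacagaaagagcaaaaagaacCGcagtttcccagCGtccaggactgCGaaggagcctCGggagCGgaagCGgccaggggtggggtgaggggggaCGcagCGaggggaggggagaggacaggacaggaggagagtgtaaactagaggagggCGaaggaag

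RefSeq's table held 47 such windows for 42 of the 61 members. The median window of a member had 23 CpG (range 4 to 50) and a GC content of 65.7%, against 7 CpG and 52.7% over all 32851 windows of 27025 genes. At least 10 CpG were present in 43 of the 47 member windows (91.5%) and in 43.5% of all windows. The class was shared by members that were transcribed at a measurable level and those that were not: the median was 25.5 CpG in 16 windows of members tested below and 22 CpG in 31 windows of members that were not tested. The core motif of YY1, a zinc finger protein that binds the INO80 complex (CCATNTT, either strand), was found in 2 member windows (4.26%) and in 16.1% of all windows. The octamer of OCT4 (ATGCAAAT, either strand) was found in 0 member windows and in 1.74% of all, and the TATA box (TATAAA, either strand) in 3 member windows (6.38%) and in 13.6% of all. These searches describe the letters in the windows and not the binding of a factor. The motifs are rich in A and T, and the windows compared were not matched for GC content, which was higher in the members. A lower share is therefore not read as a trait of the members.

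Most members were near the bottom of the expression range. The median member had a library-mean RPKM of 0.141 in the naive state and 0.233 in the primed state, against 0.864 and 0.881 over all rows. In all 8 libraries, 37 members stayed below 1 RPKM, and 5 more (Emx1, Isl1, En1, Alx1 and Nkx2-5) reached it in a single library. Expression at or above 1 RPKM in at least 2 libraries, the minimum for a test, was met by 19 members (31.1%), against 54.8% of all rows. A member that met it through a group where it is high could more easily differ between groups, so counts over the 19 are read only beside the same counts over all tested genes. No row holds an exact 0.

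**Figure D1:**
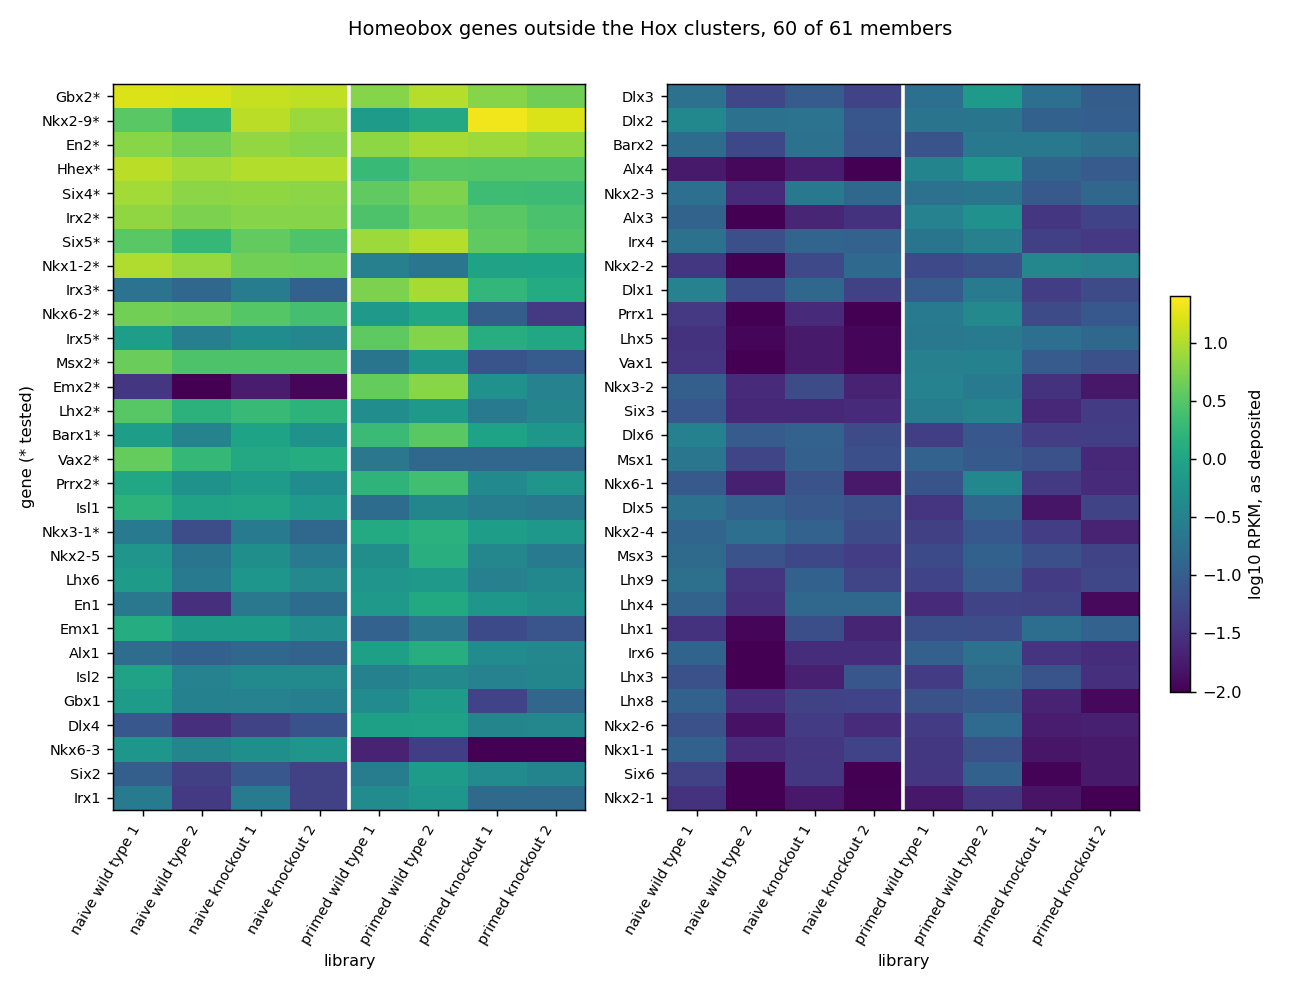
RPKM as deposited, on a log10 colour scale, of 60 members (rows, ordered by mean level, asterisk where tested) in the 8 libraries (columns, naive on the left of each panel and primed on the right). Values below the lowest colour share it, Nkx2-9 is brightest in the 2 primed knockout libraries, and Emx2 and Irx3 in the 2 primed wild-type libraries.

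Only 6 members reached 1 RPKM in every library: Gbx2, Hhex, Six4, En2, Irx2 and Six5. Gbx2 and En2, which act at the midbrain and hindbrain boundary, had naive wild-type values of 16.6 and 15.7 RPKM and of 6.30 and 4.88 RPKM. Hhex, a factor of early endoderm, had 11.2 and 8.44 RPKM there. Gbx2 therefore had the highest naive wild-type level of the 61 members. In primed wild type the order was different: Six5 (7.95 and 10.4 RPKM), Gbx2 (6.13 and 10.4 RPKM), En2 (6.59 and 8.94 RPKM) and Irx3 (5.31 and 8.98 RPKM) led, with overlapping ranges. The naive and primed libraries had been scaled apart, so these levels stand side by side and were not tested against each other.

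Some members reached 1 RPKM in a single state. Lhx2, Msx2, Vax2 and Nkx1-2 were at or above 1 RPKM in all 4 naive libraries and in no primed library. Irx3 and Irx5, neighbouring Iroquois genes of the neural tube and heart, were at or above 1 RPKM in all 4 primed libraries and in no naive library. Emx2, a factor of the dorsal forebrain and urogenital tract, had 3.90 and 6.31 RPKM in primed wild type and at most 0.0344 RPKM in any naive library.

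The groups carried whole-library shifts that touch every member. Naive wild-type replicate 2 was lower than replicate 1 for 60 of the 61 members, and primed wild-type replicate 2 was higher than replicate 1 for 56. The median member had 0.199 and 0.0683 RPKM in naive wild type and 0.139 and 0.114 RPKM in naive cells labelled knockout. In the primed state it had 0.273 and 0.389 RPKM in wild type and 0.133 and 0.132 RPKM in the libraries labelled knockout. Over all tested genes the primed difference had a median of -0.53 on the log2(RPKM + 1) scale, so a primed fall of a member is also given after quantile normalization within each state, where that median was 0.03. Depth is unknown, since RPKM as deposited hold no read totals. The labels do not state separate cultures for the replicates, and each p-value therefore covers the spread among the sequenced libraries alone, which may be technical. With these bulk libraries, fewer cells that express a gene and less RNA per cell cannot be told apart.

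As deposited, the targeted gene was called lower in the primed state only. Ino80 had 9.12 and 8.74 RPKM in primed libraries labelled knockout and 15.9 and 20.3 RPKM in primed wild type, a difference of -0.93 ± 0.18 (SE; limma, Benjamini-Hochberg adjusted p = 2.03e-06). As deposited the median tested gene fell by 0.53 in the primed state, and after quantile normalization the Ino80 difference was -0.26 ± 0.04 and still called (limma, adjusted p = 2.39e-04). Of all tested genes, 59.3% were called lower in the primed state as deposited and 34.6% after quantile normalization. A call of Ino80 there does not by itself check the labels. In naive libraries labelled knockout Ino80 had 15.9 and 15.1 RPKM, within the wild-type range of 14.5 to 17.0 RPKM, with a difference of -0.02 ± 0.18 (limma, adjusted p = 0.975). After quantile normalization the naive difference was -0.08 ± 0.04 and not called (limma, adjusted p = 0.0802). Loess normalization within each state called it lower at -0.099 (limma, adjusted p = 0.0461), where 28.4% of all tested genes were called lower. A value for the whole gene need not show a deletion of part of it, and the labels do not name the deleted exons. Directions in the naive state below are therefore those between libraries labelled knockout and libraries labelled wild type.

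In the naive state, Nkx2-9 was the member that rose and Vax2 the member that fell. All differences below are of log2(RPKM + 1), knockout minus wild type, with the SE of the fit over the 8 libraries and 2 libraries in a group. Of the 19 tested members, 1 was called higher (5.26%) and 1 lower (5.26%), where 6.08% and 5.85% of all 13428 tested genes were called. The median member differed by -0.10 and the median of all tested genes by 0.05. The shares of members called were near those of all genes.

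Nkx2-9 encodes an NK2-class factor of the ventral neural tube and pharyngeal endoderm. It had 11.2 and 7.75 RPKM in naive libraries labelled knockout and 3.36 and 1.66 RPKM in naive wild type. Both knockout libraries lay above both wild-type libraries. The difference was 1.60 ± 0.27 (limma, adjusted p = 1.82e-07) and 1.57 ± 0.14 after quantile normalization (limma, adjusted p = 5.28e-05). By rank among all rows of a library, its mean was at the 58.1 percentile in naive wild type and at the 71.4 percentile in naive libraries labelled knockout.

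Vax2, a factor of the ventral eye, had 1.13 and 1.26 RPKM in naive libraries labelled knockout and 3.92 and 1.84 RPKM in naive wild type. The groups did not overlap, although the wild-type libraries differed more from each other than the lower of them from the knockout libraries. The difference was -0.77 ± 0.25 (limma, adjusted p = 0.0237) and -0.80 ± 0.11 after quantile normalization (limma, adjusted p = 4.95e-04). The call was lost without naive wild-type replicate 1, where the difference was -0.37 (limma, adjusted p = 0.364), and without either naive or either primed library labelled knockout.

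Nkx1-2, a factor of the caudal epiblast and the early neural plate, had 4.80 and 4.45 RPKM in naive libraries labelled knockout and 9.75 and 7.57 RPKM in naive wild type. The groups did not overlap. As deposited its difference of -0.77 ± 0.28 missed the threshold (limma, adjusted p = 0.0505), and after quantile normalization it was called at -0.84 ± 0.07 (limma, adjusted p = 2.63e-05). That normalization raised the calls to 2 higher (Nkx2-9 and Six5) and 8 lower (among them Gbx2, Lhx2, Msx2, Nkx1-2, Nkx6-2, Six4 and Vax2) of 19 members, where 32% and 27.4% of all genes were called.

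**Figure D2:**
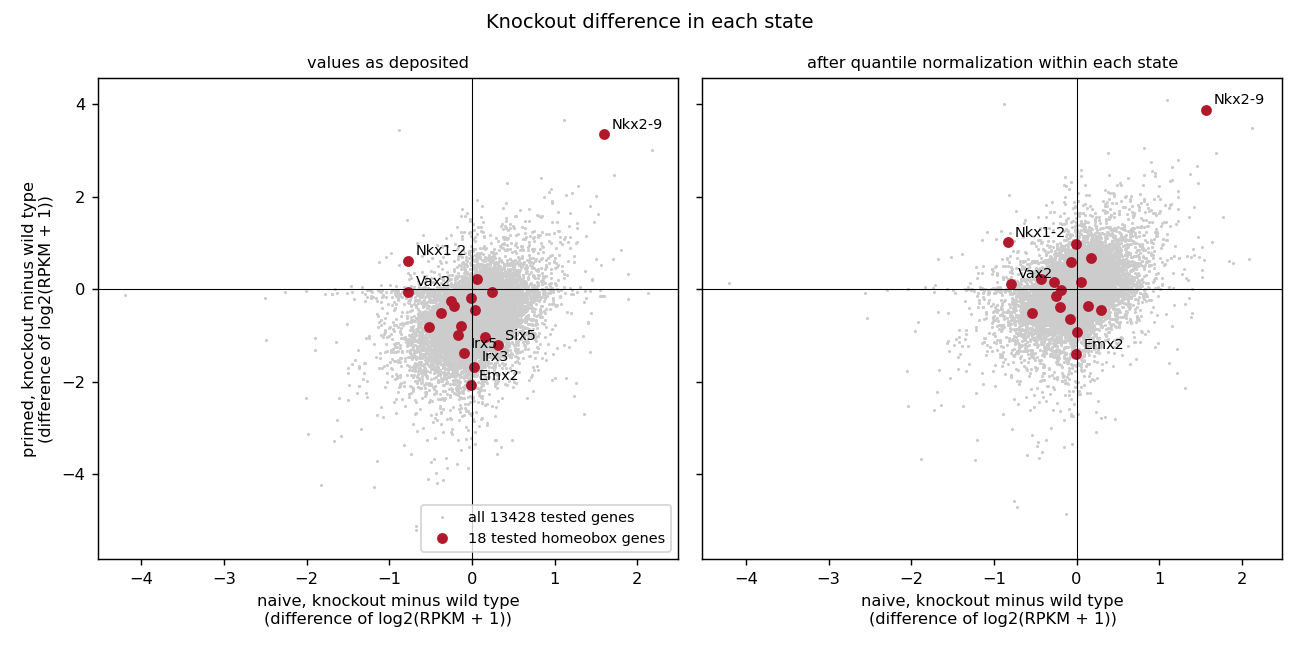
Knockout minus wild type difference of log2(RPKM + 1) in the naive state (x axis) and in the primed state (y axis) for all 13428 tested genes (grey) and 18 tested members (red), as deposited on the left and after quantile normalization within each state on the right. Nkx2-9 lies at 1.60 and 3.35 on the left, far from the other members, and the cloud of all genes moves up on the right.

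In the primed state, Nkx2-9 and Nkx1-2 were called higher, and Emx2, Irx3, Irx5, Six5, Barx1, Prrx2, Nkx6-2, Six4 and Gbx2 were among those called lower. In all, 2 of 19 tested members were higher (10.5%) and 10 lower (52.6%), where 4.16% and 59.3% of all tested genes were called. The median member differed by -0.52, close to the median of -0.53 over all tested genes. The share called lower was thus no larger than that of all genes. With a pseudocount of 0.1 in place of 1, the medians of members and of all tested genes were -1.03 and -0.65, so their closeness depended on that setting. After quantile normalization 5 members were higher and 8 lower, where 39.4% and 34.6% of all genes were called. Loess normalization called the same members in each state and in the difference between states. Of all genes it called 29.1% higher and 28.4% lower in the naive state, 37% and 36.5% in the primed state and 32.7% and 30.6% for the difference.

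Nkx2-9 had 21.5 and 15.9 RPKM in primed libraries labelled knockout and 0.746 and 1.11 RPKM in primed wild type. No other member was as high in either primed library labelled knockout, and the groups did not overlap. Its mean level was 20.1-fold higher, and the difference was 3.35 ± 0.27 (limma, adjusted p = 2.46e-33). After quantile normalization it was 3.87 ± 0.14 (limma, adjusted p = 1.42e-07). The very small first p reflects that the fit as deposited took the variance of every gene from one trend over all genes. Its mean rank was at the 48.1 percentile in primed wild type and at the 84.2 percentile in primed libraries labelled knockout.

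The genes beside Nkx2-9 were not higher in the primed libraries labelled knockout. In RefSeq's gene order on GRCm38.p6, Nkx2-1 lies 74.5 kb to one side and Pax9 78.1 kb to the other. Nkx2-1, the lung and thyroid factor, was at or below 0.0336 RPKM in all 8 libraries. Pax9, a factor of the pharyngeal pouches and teeth, had 0.0261 and 0.0547 RPKM in primed libraries labelled knockout and 0.221 and 0.363 RPKM in primed wild type. Mbip, 266 kb from Nkx2-9, had 8.33 and 8.90 RPKM against 16.2 and 21.0 RPKM and fell by 1.02 (limma, adjusted p = 6.96e-07).

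**Figure D3:**
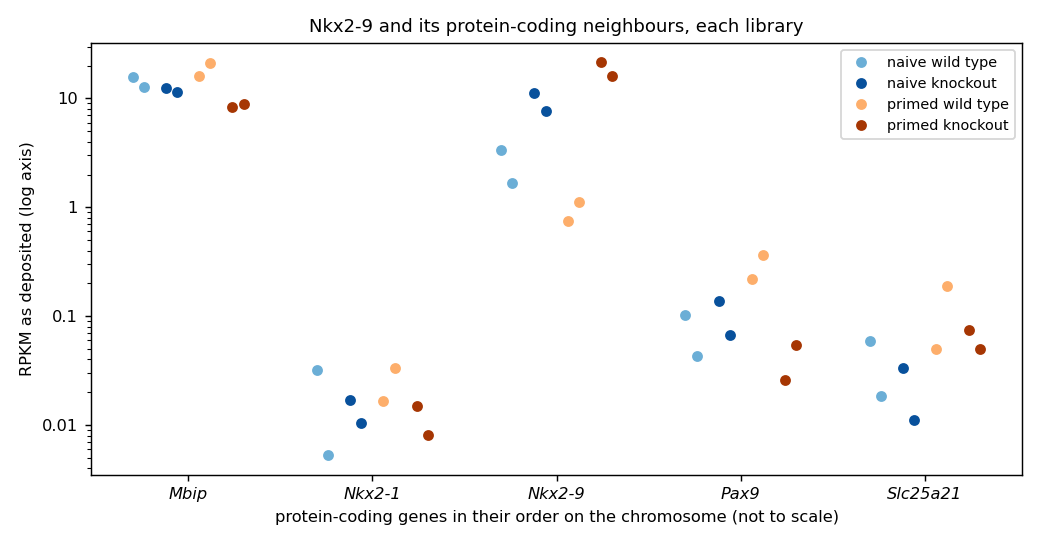
RPKM as deposited (log axis) of Nkx2-9 and its 2 nearest protein-coding neighbours on each side, in chromosome order and not to scale, with 1 point for each of the 8 libraries. The primed knockout points of Nkx2-9 lie at 21.5 and 15.9 RPKM, while Nkx2-1, Pax9 and Slc25a21 stay below 1 RPKM in every library.

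Nkx1-2 moved in opposite directions in the 2 states. It had 0.908 and 0.941 RPKM in primed libraries labelled knockout and 0.304 and 0.214 RPKM in primed wild type, so the groups did not overlap and all 4 values were below 1 RPKM. The difference was 0.61 ± 0.28 (limma, adjusted p = 0.0465) and 1.02 ± 0.07 after quantile normalization (limma, adjusted p = 3.02e-06). The call as deposited was lost when any 1 primed library, or either naive library labelled knockout, was left out. Nkx2-2, a ventral neural tube factor that was too low to be tested, had 0.369 and 0.319 RPKM against 0.0556 and 0.0704 RPKM. Lhx1, a factor of the head organizer that was also too low, had 0.168 and 0.117 RPKM against 0.0664 and 0.0641 RPKM. These and Nkx2-9 and Nkx1-2 were the 4 of 61 members (6.56%) whose primed knockout values all lay above wild type, where 5.1% of all rows did so. In a fit without the filter on low values Nkx2-2 was called (0.34, limma, adjusted p = 6.07e-05) and Lhx1 was not (0.10, limma, adjusted p = 0.104). The primed call of Nkx1-2 was lost in that fit (limma, adjusted p = 0.201).

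**Figure D4:**
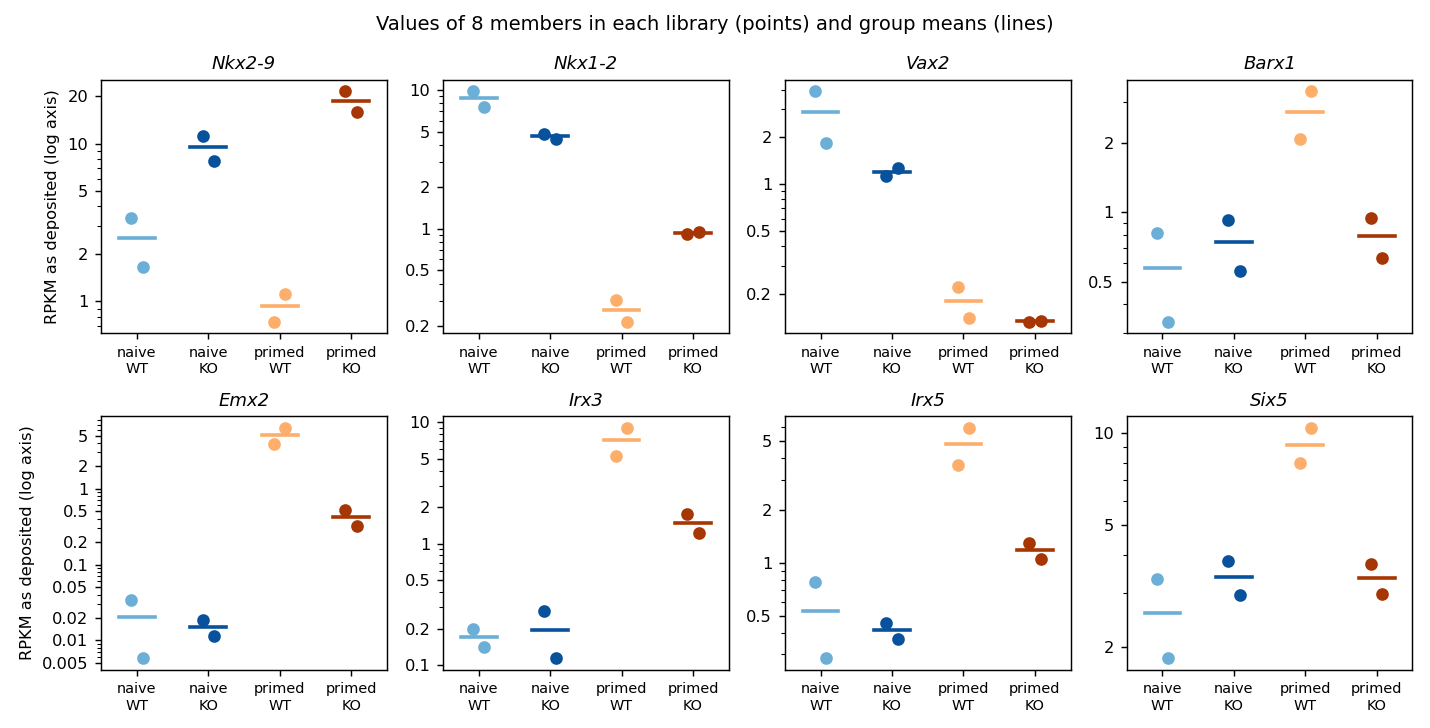
RPKM as deposited (log axes that differ between panels) of 8 members, with 1 point per library and a line at the mean of each group of 2. Nkx2-9 was higher in both states where the labels say knockout; Nkx1-2 was lower in the naive and higher in the primed state; Emx2, Irx3, Irx5 and Six5 differ in the primed panels.

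On the log2(RPKM + 1) scale, Emx2 had the largest primed fall of the tested members. It had 0.523 and 0.325 RPKM in primed libraries labelled knockout and 3.90 and 6.31 RPKM in primed wild type. The mean was 12.0-fold lower, and the difference was -2.07 ± 0.25 (limma, adjusted p = 1.33e-15). After quantile normalization it was -1.41 ± 0.09 (limma, adjusted p = 3.10e-06). Emx2 met the minimum for a test only through the 2 primed wild-type libraries, the group where it is high; in the fit without that filter it was called as well (limma, adjusted p = 2.07e-08). Emx2os, the transcript listed as its opposite strand partner, had 0.00881 and 0.0336 RPKM against 0.537 and 0.595 RPKM and was too low to be tested. Whether counting used the strand is not stated, so reads of the pair cannot be told apart. Of 23 antisense names looked for at members, 10 were in the files and 0 reached the level for a test. Emx1, its paralog in the forebrain, was at or below 0.223 RPKM in all primed libraries.

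The Iroquois genes Irx3 and Irx5 fell together. Irx3 had 1.76 and 1.22 RPKM in primed libraries labelled knockout and 5.31 and 8.98 RPKM in primed wild type. Irx5 had 1.31 and 1.05 RPKM against 3.63 and 5.92 RPKM. Neither pair of groups overlapped. The differences were -1.68 ± 0.27 for Irx3 (limma, adjusted p = 2.12e-09) and -1.38 ± 0.27 for Irx5 (limma, adjusted p = 9.89e-07), and after quantile normalization -0.93 and -0.64 (limma, adjusted p = 1.99e-04 and 1.12e-04). Irx6, the third gene of their cluster, had 0.0332 and 0.0277 RPKM against 0.109 and 0.185 RPKM. Fto, the gene beside Irx3, fell by 0.68 as deposited (limma, adjusted p = 6.32e-07) and had a difference of -0.19 after quantile normalization. Irx2 of the other Iroquois cluster had 3.42 and 2.62 RPKM against 2.80 and 4.44 RPKM and was not called as deposited (-0.19 ± 0.28; limma, adjusted p = 0.574). After quantile normalization Irx2 was called higher by 0.59 (limma, adjusted p = 3.99e-04). Its cluster partners Irx1 and Irx4 stayed below 1 RPKM in all 8 libraries.

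Six4 and Six5, whose family acts with EYA cofactors in sensory organs, muscle and kidney, were called lower as deposited. Six4 had 2.18 and 2.16 RPKM against 3.75 and 5.46 RPKM. Its difference of -0.81 ± 0.27 was called as deposited (limma, adjusted p = 6.29e-03), and after quantile normalization it was -0.02 ± 0.05 (limma, adjusted p = 0.714). RefSeq has Mnat1 overlapping Six4, so reads of the pair may be shared. Six5 had 3.74 and 2.98 RPKM against 7.95 and 10.4 RPKM, with differences of -1.22 ± 0.28 (limma, adjusted p = 4.37e-05) and of -0.45 ± 0.08 after quantile normalization (limma, adjusted p = 1.23e-03). Dmpk, which lies 0.723 kb from Six5, was not called as deposited (-0.43; limma, adjusted p = 0.0954). After quantile normalization Dmpk was called higher (0.26; limma, adjusted p = 8.96e-03). RefSeq has Bhmg1, which has no row of its own here, overlapping Six5, so reads of that pair may be shared as well. Six6, a factor of the eye and pituitary on the same chromosome as Six4, was at or below 0.114 RPKM in all 8 libraries.

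Barx1, Prrx2 and Nkx6-2 were also called lower as deposited. Barx1, a factor of stomach mesenchyme, had 0.949 and 0.633 RPKM in primed libraries labelled knockout and 2.08 and 3.34 RPKM in primed wild type. Only these wild-type libraries reached 1 RPKM and brought Barx1 into the test, and in the fit without the filter it was called as well (limma, adjusted p = 6.18e-03). Prrx2, a factor of limb and face mesenchyme, had 0.407 and 0.588 RPKM against 1.65 and 2.38 RPKM. It too came into the test through wild-type libraries alone, these and naive replicate 1 (1.09 RPKM). Its primed call was kept in the fit without the filter (limma, adjusted p = 2.85e-03). Nkx6-2, a ventral neural tube factor, had 0.0995 and 0.0375 RPKM against 0.691 and 1.09 RPKM, a mean 13.0-fold lower. Their groups did not overlap, and the differences ran from -1.03 for Barx1 to -0.82 for Nkx6-2, with an SE between 0.25 and 0.27 (limma, in this order adjusted p = 1.96e-04, 2.40e-04 and 5.43e-03). After quantile normalization they were -0.36, -0.39 and -0.51 and still called (limma, adjusted p = 8.43e-03, 3.90e-03 and 4.52e-03). After median centring the calls of Prrx2 (-0.31; limma, adjusted p = 0.0630) and Nkx6-2 (-0.12; limma, adjusted p = 0.350) were lost, and that of Nkx6-2 was also lost without the filter (limma, adjusted p = 0.0617) and in 3 of the 8 fits that left out a library. Inpp5a, which overlaps Nkx6-2 in RefSeq, had a difference of -0.86 after quantile normalization (limma, adjusted p = 1.06e-06), and reads of the pair may be shared. Among the paralogs, Barx2 and Prrx1 stayed below 1 RPKM in all 8 libraries.

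For Gbx2, En2 and Hhex the call changed with the scaling. Gbx2 had 6.04 and 4.61 RPKM in primed libraries labelled knockout and 6.13 and 10.4 RPKM in primed wild type. It was called lower as deposited (-0.52 ± 0.22; limma, adjusted p = 0.0291) and had a difference of 0.22 ± 0.11 after quantile normalization (limma, adjusted p = 0.0964). En2 went from -0.07 ± 0.25 (limma, adjusted p = 0.822) to a called 0.66 ± 0.07 (limma, adjusted p = 5.42e-05). Hhex went from 0.21 ± 0.26 (limma, adjusted p = 0.496) to a called 0.97 ± 0.05 (limma, adjusted p = 8.38e-07). The En2 and Hhex values overlapped between groups as deposited.

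**Figure D5:**
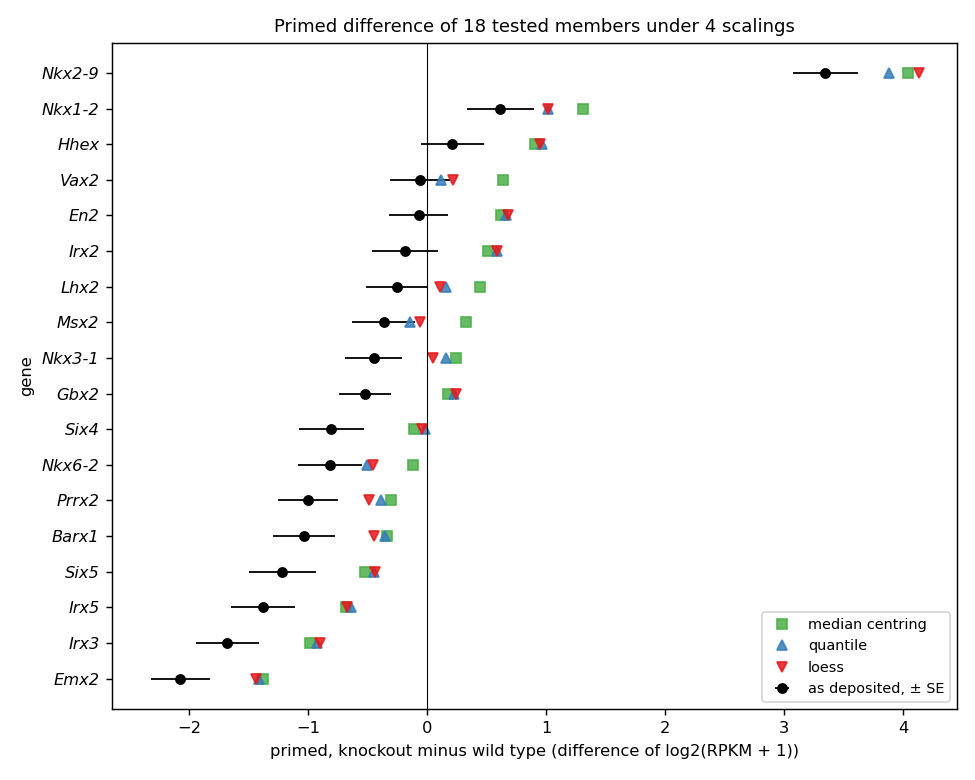
Primed knockout minus wild type difference of log2(RPKM + 1) (x axis) of 18 tested members (y axis) as deposited (black, bars are SE) and after median centring (green squares), quantile (blue triangles) and loess normalization (red triangles) within each state. Nkx2-9 and Nkx1-2 lie above 0 and Emx2, Irx3, Irx5, Six5, Barx1, Prrx2 and Nkx6-2 below 0 under all 4 scalings. En2, Gbx2, Vax2, Irx2, Lhx2 and Msx2 are among those that cross 0.

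Groups without overlap were also counted over all 61 members, so that those below the test minimum are included. In primed cells 43 of the 61 members (70.5%) had both knockout values below both wild-type values, where 78.3% of all rows did. In naive cells this held for 9 members (14.8%), where 13.5% of all rows did, and 4 members (6.56%) were above, where 19.2% of all rows were. By rank within each library, which a shift of a whole library does not move, 26 members (42.6%) were lower and 18 (29.5%) higher in the primed state without overlap, where 51.4% and 31.5% of all rows were. In naive cells 27 members (44.3%) were lower and 10 (16.4%) higher by rank, where 39.1% and 29% of all rows were. A fit without the filter on low values tested all 61 members and 24505 rows. It called 2 members higher and 24 lower in the primed state, where 2.29% and 36.6% of all rows were called. In the naive state it called 1 higher and 0 lower, where 2.6% and 2.85% were called, and Nkx2-9 was the member called. All 6 Dlx genes, factors of forebrain interneurons and of the limb, and all 3 Alx genes, factors of face mesenchyme, were among the members not tested.

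The difference between the states was tested as an interaction, the primed difference minus the naive difference. It was higher for 2 of 19 members (10.5%) and lower for 7 (36.8%), where 2.16% and 47.4% of all tested genes were called. Nkx2-9 (1.74 ± 0.38; limma, adjusted p = 4.33e-05) and Nkx1-2 (1.39 ± 0.40; limma, adjusted p = 2.10e-03) were higher in the primed than in the naive comparison. Emx2, Irx3, Six5, Irx5, Barx1 and Prrx2 were among those lower, from -2.07 for Emx2 to -0.83 for Prrx2. Of these, Emx2, Irx3, Irx5 and Barx1 were below 1 RPKM in every naive library, where a fall had little room on this scale. The median of all tested genes was -0.59, as the primed values carried their own shift. Without the filter 2 members were higher (Nkx2-9 and Nkx2-2) and 15 lower, where 1.16% and 23.4% of all rows were called. In that fit the calls of Nkx1-2 (limma, adjusted p = 0.0516) and Prrx2 (limma, adjusted p = 0.102) were lost. After quantile normalization 8 members were higher and 6 lower, where 34% and 30.5% of all genes were called. Under it 8 of the 9 calls as deposited remained and that of Prrx2 was lost (-0.19; limma, adjusted p = 0.216). Vax2 differed by 0.71 as deposited (limma, adjusted p = 0.0827) and by 0.92 after quantile normalization (limma, adjusted p = 1.29e-03).

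Partners, chromatin regulators and upstream signals of these genes were listed by what is known of them. Of 30 genes for cofactors of homeodomain proteins, 25 were tested, and 3 were called higher and 12 lower in the primed state (median -0.38), where 4.16% and 59.3% of all tested genes were called. In the naive state 1 was higher and 1 lower, where 6.08% and 5.85% of all tested genes were called. Tle4 (0.63) and Ldb1 (0.30), a Groucho corepressor and the LIM domain cofactor, rose, as did Ssbp4 (0.36), a partner of LDB1 (limma, adjusted p = 2.49e-05, 0.0158 and 2.79e-03). Pknox2 (-1.89) and Pbx4 (-1.39), TALE-class partners of homeodomain proteins, and Tle3 (-1.44) fell (limma, adjusted p = 2.36e-11, 1.00e-07 and 1.29e-17). In the naive state Tle4 rose by 0.42 (limma, adjusted p = 0.0257) and Aes, a short Groucho-related protein, fell by 0.36 (limma, adjusted p = 4.48e-03). After quantile normalization 12 of the 25 were higher and 8 lower in the primed state, where 39.4% and 34.6% of all genes were called. The share called lower in the primed state as deposited was below that of all genes.

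A list of 21 genes that write, bind or erase the marks of bivalent promoters was tested in whole, and it does not hold every such gene. In the primed state 2 were higher and 14 lower (median -0.44), where 4.16% and 59.3% of all tested genes were called and their median was -0.53. The Polycomb genes Eed (0.54) and Rbbp7 (0.31) rose, and Ezh1 (-1.77) and Phf19 (-1.76) fell together with the H3K27 demethylase gene Kdm6b (-1.03), with limma adjusted p = 2.07e-07, 6.22e-04, 5.77e-11, 2.07e-10 and 4.12e-12. In the naive state Rbbp5 (0.49), Jarid2 (0.40) and Eed (0.39) were higher and Ash2l lower (-0.60), with limma adjusted p = 1.03e-03, 8.94e-03, 1.78e-03 and 1.80e-07. After quantile normalization 9 of the 21 were higher and 6 lower in the primed state, where 39.4% and 34.6% of all genes were called.

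Of 27 genes of the BMP, SHH, retinoic acid and WNT pathways, which induce homeobox genes in the embryo, 22 were tested. In the primed state 2 were higher and 11 lower (median -0.46), where 4.16% and 59.3% of all tested genes were called, and in the naive state 1 was higher and 0 lower. Wnt3, a ligand of the primitive streak, had 19.2 and 17.3 RPKM in primed libraries labelled knockout and 3.47 and 4.79 RPKM in primed wild type and rose by 1.92 (limma, adjusted p = 8.91e-11). Ctnnb1, which encodes β-catenin, rose by 0.42 (limma, adjusted p = 3.03e-07). Ptch1, the SHH receptor gene and a target of the pathway, had 0.831 and 0.715 RPKM against 5.22 and 7.55 RPKM and fell by 2.04 (limma, adjusted p = 8.84e-13). Fzd7 (-1.34) and Rara (-1.28) fell as well (limma, adjusted p = 1.73e-09 and 3.03e-07). Gli1, a transcriptional effector of SHH, rose in the naive state by 0.69 (limma, adjusted p = 0.0434), at 1.83 and 1.28 RPKM against 0.723 and 0.439 RPKM. After quantile normalization 9 of the 22 were higher and 6 lower in the primed state, again beside 39.4% and 34.6% of all genes.

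Markers of other cell types also differed in the primed state. As deposited, 59.3% of all tested genes were called lower there, and calls of markers are read beside that share. The summed level of 5 primitive streak and mesoderm markers was 44.9 and 41.2 RPKM in primed libraries labelled knockout and 5.03 and 6.84 RPKM in primed wild type. T and Eomes were the 2 of its 3 tested markers that rose, Tbx6 fell, Mesp1 was below 0.1 RPKM in all 4 primed libraries, and Mixl1 was below it in both libraries labelled knockout. T had 37.4 and 33.7 RPKM against 1.94 and 2.89 RPKM. After quantile normalization T and Eomes were called higher and Tbx6 was not called. The 5 neurectoderm markers summed to 140 and 133 RPKM against 85.3 and 99.5 RPKM. Among them Nes rose (0.86), Sox1 (-1.98) and Pax6 (-2.34) fell, with limma adjusted p = 4.49e-09, 2.70e-11 and 3.89e-17, and Olig2 was below 0.1 RPKM throughout the primed libraries. The 4 fibroblast markers summed to 5.87 and 5.82 RPKM against 12.6 and 18.4 RPKM, with 3 of 3 tested lower as deposited and 1 of 3 (Col1a2) after quantile normalization. The 4 neural crest and mesenchyme markers summed to 14.5 and 11.8 RPKM against 19.1 and 25.7 RPKM, with 2 of 3 tested lower and Sox10 below 0.1 RPKM in both libraries labelled knockout. After quantile normalization 1 of these 3 was higher (Tfap2a) and 1 lower (Snai2). None of the endoderm or trophoblast markers tested (2 of each list) was called in either state as deposited, and these lists summed to at most 2.99 and 2.45 RPKM in the primed libraries. After quantile normalization Gata6 was called higher in the naive state, and Gata4 and Tfap2c in the primed state. The 3 shared pluripotency markers summed to between 623 and 753 RPKM in the primed and between 786 and 888 RPKM in the naive libraries. The 5 primed markers summed to between 258 and 313 RPKM in the primed and at most 52.7 RPKM in the naive libraries. As deposited, Sox2, Pou5f1 and Fgf5 were called higher in the primed state, where 4.16% of all tested genes were, and Pou3f1 and Zic2 lower. In the naive state Sox2, Zic2 and Nes were called higher and T lower, where 6.08% and 5.85% of all tested genes were. After quantile normalization T, Sox1, Snai2, Thy1, Tfcp2l1 and Prdm14 were called lower in the naive state. Called higher there, besides Gata6, were Nes, Sox2, Pou5f1, Sall4, Zic2, Dnmt3b, Nanog, Zfp42, Tbx3 and Esrrb. Of all genes, 32% were called higher and 27.4% lower in that state. After quantile normalization all 3 shared markers, Fgf5, Otx2 and Dnmt3b were called higher in the primed state and Pou3f1 lower. Of all genes, 39.4% and 34.6% were called there. The 7 naive markers summed to at least 1171 RPKM in the naive libraries, and to 40.5 and 37.5 RPKM in primed libraries labelled knockout against 118 and 132 RPKM in primed wild type. Of these 7, 5 were called lower in the primed state as deposited (Nanog, Esrrb, Klf4, Zfp42 and Tfcp2l1), and after quantile normalization these and Tbx3 were. The part of these cell types and states in the differences of the members was not tested.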

How the data were processed

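RNA was measured in 8 libraries of mouse embryonic stem cells. The authors deposited 1 RPKM value per gene (reads per gene length and library size) for 24505 rows per library, scaled further by an unstated method, as read from the values. The submitters' processing notes name cutadapt 1.9, STAR 2.5.2b, featureCounts 1.5.1, affy and the build mm9. ERCC spike-in RNA was added and ribosomal RNA removed, per the labels' protocols. Depth is unknown.

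Groups came from the labels. On the log2(RPKM + 1) scale, the 13428 genes that reached 1 RPKM in 2 or more of 8 libraries were fitted with limma 3.58.1 in R 4.3.3, with 4 group means and an intensity trend. The Benjamini-Hochberg adjustment ran over all tested genes of a comparison, and the threshold was 0.05. The prior degrees of freedom were infinite beside 4 residual ones, so every variance came from the trend (median residual SD 0.179). After quantile normalization they were 3.73. The procedure was run on simulated data whose spread was taken from a trend and which held no shift of a whole library. That run therefore does not check calls under such shifts. Values and figures were prepared with Python 3.11.15, pandas 2.3.3, numpy 2.4.6 and matplotlib 3.10.9.

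Members were named when called in a comparison, among the 5 highest of a state, or paired with a called gene on the chromosome or as a paralog; other lists gave up to 3 genes per direction. Of the members, 1 is counted but not reported here. Nkx2-2, Lhx1 and the genes beside members were chosen after their values were seen, as were the counts by rank. Members, lists and alternatives were chosen with earlier results of these data known. Promoters and gene order came from RefSeq on GRCm38.p6, not the files' build, and were matched by symbol. Naive and primed libraries were scaled apart and not tested against each other. Alternatives were another pseudocount, other filters, 3 other scalings, each state alone, no trend, the replicate number as a block, and each library left out.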

Additional observations from a re-analysis of the deposited data

Results flagged for a closer look

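For the members below, the difference between knockout and wild type itself differed between the primed and the naive state, by the interaction term of the limma fit. Each value is the primed minus the naive difference of log2(RPKM + 1) as deposited, with 2 libraries per group. It was positive for Nkx2-9 (1.74) and Nkx1-2 (1.39). It was negative for Emx2 (-2.07), Irx3 (-1.71), Six5 (-1.53), Irx5 (-1.28), Barx1 (-1.19) and Prrx2 (-0.83). In the naive libraries Emx2 had at most 0.0344 RPKM, Irx3 0.277 RPKM, Irx5 0.782 RPKM and Barx1 0.929 RPKM. A naive fall of these had little room on this scale, least for Emx2 and Irx3, so their terms mostly restate the primed fall. With each library left out in turn, that of Prrx2 passed the threshold in 2 of 8 fits (largest limma adjusted p = 0.241) and that of Barx1 in 6 of 8 (largest limma adjusted p = 0.0893), and after median centring neither was called (limma, adjusted p = 0.756 and 0.0674). Nkx1-2 was lower in the naive and higher in the primed libraries labelled knockout, without overlap in either state. Without the filter on low values the interactions of Nkx1-2 and Prrx2 were not called (limma, adjusted p = 0.0516 and 0.102). The median of all tested genes was -0.59, which the negative values include.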

How the results depend on the processing

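Calls of the 19 tested members moved most with the scaling. Shares of all genes called are given above for quantile and loess normalization and for the fit without the filter. They were not computed for the other settings, so counts under those are not read as a result about the members. In the naive state, higher and lower calls were 2 and 8 after loess and 2 and 8 after quantile normalization. Lower calls were 6 after median centring, 2 without the trend, and 0 with a pseudocount of 0.1, without the filter and in each state alone. In the primed state, higher calls were 5 after loess, 5 after quantile normalization and 8 after median centring. Lower calls there were 6 after median centring, 4 of 9 members at a filter of 5 RPKM and 24 of 61 without a filter. The primed median was -0.042 after loess, -0.020 after quantile normalization, 0.173 after median centring, -0.185 at the filter of 5 RPKM, -0.160 without a filter and -1.03 at a pseudocount of 0.1. Over all genes of each fit it was, in this order, 0.016, 0.026, 0.161, -0.54, -0.194 and -0.646. For the difference between states, higher calls were 8 after loess, 8 after quantile normalization and 10 after median centring. Lower calls were 4 after median centring, 2 at a filter of 5 RPKM and 15 of 61 without a filter. Its median was 0.169 after loess, 0.107 after quantile normalization, 0.442 after median centring and -1.06 at a pseudocount of 0.1. Over all genes it was 0.016, 0.030, 0.161 and -0.703. The members' median of this difference lay above that of all genes as deposited (-0.309 against -0.589) and below it at a pseudocount of 0.1.

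Directions turned for 4 members. The primed difference of En2 was 0.676 after loess, 0.664 after quantile normalization and 0.624 after median centring, and that of Gbx2 was 0.244, 0.223 and 0.173. Vax2 had 0.636 in the primed state after median centring. The difference between states was 0.518, 0.484 and 0.442 for En2, 0.700, 0.648 and 0.603 for Gbx2, and 0.458 for Nkx6-2 after median centring. Of the other tested members, Irx2, Lhx2 and Msx2 also turned in the primed state and were then called higher. Irx2 went from -0.19 to 0.59 after quantile normalization. After median centring Lhx2 went from -0.25 to 0.44 and Msx2 from -0.37 to 0.33. The difference between states turned as well for Irx2 (0.65 after quantile normalization) and Msx2 (0.60 after median centring). The cause was not tested.

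With each library left out in turn, naive calls ranged from 1 to 1 higher and from 0 to 4 lower, primed calls from 1 to 2 higher and from 7 to 11 lower, and calls of the difference from 2 to 3 higher and from 3 to 9 lower. The medians ranged from -0.296 to 0.062 in the naive state, from -0.861 to -0.361 in the primed state and from -0.504 to -0.140 for the difference. The lone library of a group was assumed to vary like the others. Shares of all genes called were not computed for these fits, so their counts describe the fits and not the members. The fewest primed falls came without either primed library labelled knockout and without primed wild-type replicate 2, with 7 in each case, and the most naive falls without naive wild-type replicate 2. In the primed state Nkx2-9, Emx2, Irx3, Irx5, Six5, Barx1 and Prrx2 kept their calls in all 8 cases.

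The replicate numbers were shared by wild type and knockout, but the correlation of the replicate differences was 0.314 in the naive and -0.0356 in the primed state over genes, with 2 pairs per state, so the numbers were not taken as a pairing. With the replicate number as a block, primed falls went from 10 to 9, as Gbx2 was lost, and no other call changed. Depth is unknown, so it is not known how far members below 1 RPKM rest on few reads.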
